A study of Mus musculus with 12 samples.

Results

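The ribosome biogenesis factors are 39 genes, picked by name from the 50674 genes of a count table, whose proteins transcribe, modify, cut and package ribosomal RNA. Each of the 39 symbols matched 1 row, and all 39 genes passed the filter on low counts that left 17457 genes for testing. RNA was measured by sequencing of polyadenylated transcripts in natural killer (NK) cells, cytotoxic lymphocytes, that had been expanded from mouse spleen with the growth cytokine IL-2. The 4 groups were Mirc11-/- cells after 6 h of stimulation through NKG2D, unstimulated Mirc11-/- cells, wild-type cells after 6 h of the same stimulation and unstimulated wild-type cells, with 3 biological replicates in each. All mice carried the strain label C57BL/6, and all cells had received IL-2. Mirc11 is the gene cluster of the microRNAs miR-23a, miR-27a and miR-24-2, and NKG2D is an activating receptor of NK cells. The sources used here do not give how NKG2D was engaged, how the cluster was deleted or the age of the mice. Whether replicates came from separate mice is not given either, so p values measure the spread between these libraries. No time is given for the unstimulated cells, so a difference in time or handling cannot be told apart from stimulation.

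Ribosomes are assembled in the nucleolus. RNA polymerase I makes a long precursor RNA that small nucleolar ribonucleoproteins (snoRNPs) modify: the box C/D class methylates riboses and the box H/ACA class converts uridines to pseudouridines. The small-subunit processome and the pre-60S assembly factors then fold and cut the precursor into the RNAs of the small (40S) and large (60S) subunits. Lymphocytes enlarge the nucleolus and raise ribosome production when they enter growth and division, and the transcription factor MYC is known to activate many of the genes involved through the E-box sequence CACGTG.

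After NKG2D stimulation the ribosome biogenesis factors were lower in cells of both genotypes. In Mirc11-/- cells, 35 of the 39 genes fell and 0 rose (edgeR quasi-likelihood test, adjusted p below 0.05), where 22.1% of all tested genes were called lower and 23.5% higher. Their median log2 fold change was -0.98, beside 0.03 over all tested genes. In wild-type cells, 32 of the 39 fell and 0 rose, where 15.7% of all tested genes were called lower and 16.1% higher, and the median was -0.61, beside 0.02 over all tested genes. The 32 genes were among the 35, and Noc4l, Nob1 and Wdr12 were called in Mirc11-/- cells but not in wild-type cells. Polr1c, Npm1, Ddx10 and Pes1 were called in neither genotype. In each called gene the 3 stimulated libraries lay below the 3 unstimulated ones, an order held by 26.2% of all tested genes in Mirc11-/- cells and 24.1% in wild-type cells. The measurements are shares of all messenger RNA in bulk cells, in which fewer cells of a type and less RNA per cell cannot be told apart.

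**Figure D1:**
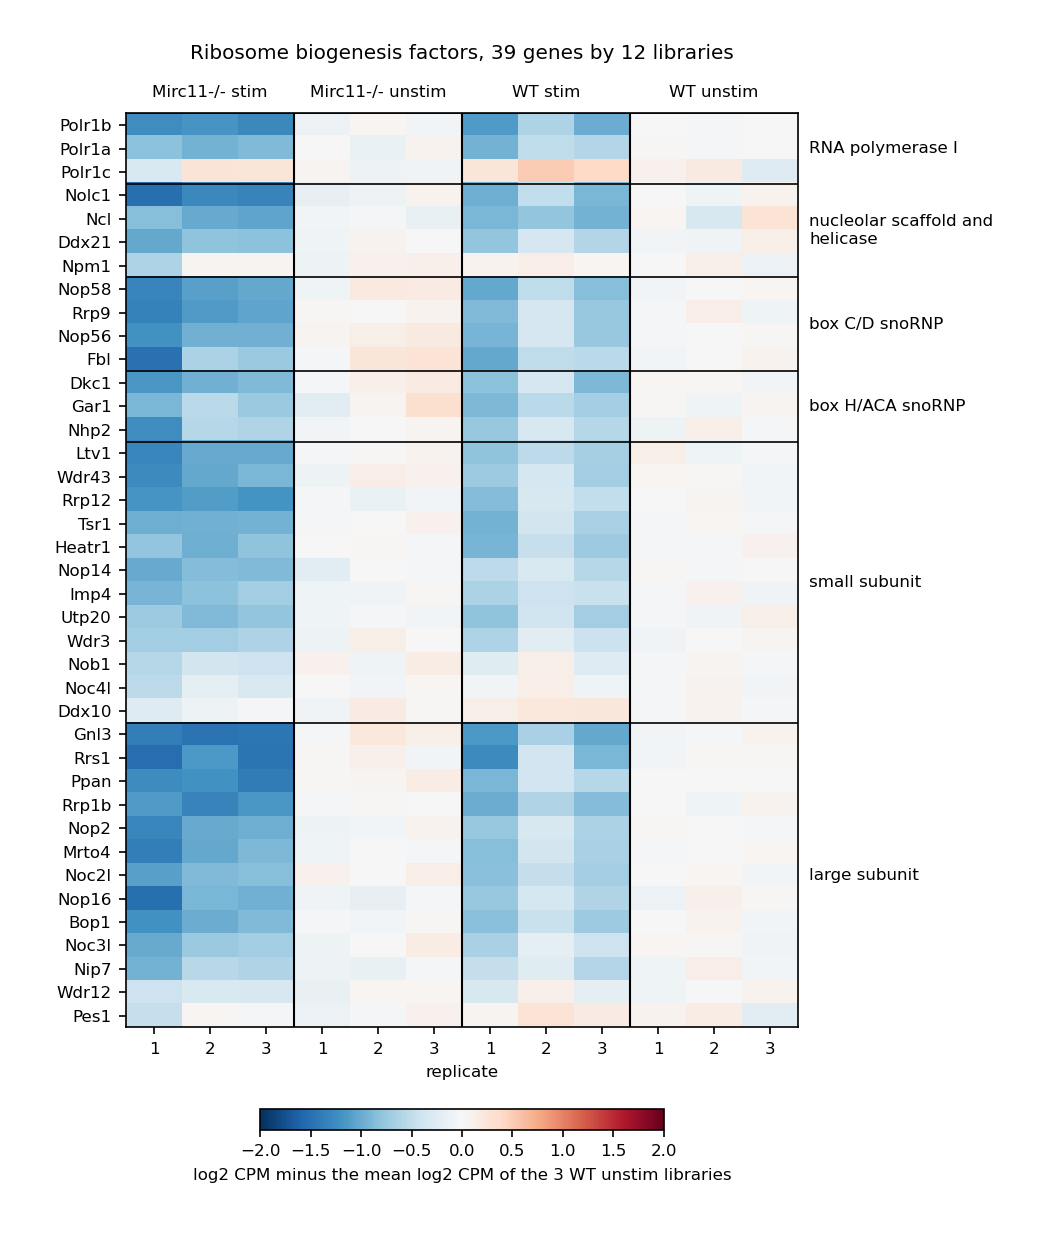
Level of each of the 39 ribosome biogenesis factors (rows, grouped by role) in each of the 12 libraries (columns, 3 replicates a group), as log2 CPM minus the mean log2 CPM of the 3 unstimulated wild-type libraries. Most genes are lower (blue) in stimulated libraries of both genotypes, and Polr1c, Npm1, Ddx10 and Pes1, called in neither genotype, stay pale.

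The E-box was looked for in the promoters of these genes, taken as 250 bases before to 50 after the RefSeq transcript start (GRCm38.p6). A promoter was listed for 34 of the 39 genes, and 7 of the 34 (20.6%) held CACGTG, whose letters are the same on both strands, against 2187 of 27025 genes in the table (8.09%). Of the 7 genes with the motif, 6 fell in Mirc11-/- and 6 in wild-type cells. Of the 27 without it, 25 fell in Mirc11-/- and 22 in wild-type cells. Over all tested genes, 22.1% were called lower in Mirc11-/- and 15.7% in wild-type cells. A match is a description of letters and shows no binding. The 60 bases around each of the 7 matches are shown because they are the part of these promoters that carries the motif, with the motif in capitals and the sequence read 5′ to 3′ on the strand of the gene.
Imp4 chr1:34439681-34439740 (plus strand): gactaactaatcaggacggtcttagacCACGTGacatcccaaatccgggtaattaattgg
Nop2 chr6:125131796-125131855 (plus strand): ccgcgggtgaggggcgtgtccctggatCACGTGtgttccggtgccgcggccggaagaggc
Ltv1 chr10:13193088-13193147 (minus strand): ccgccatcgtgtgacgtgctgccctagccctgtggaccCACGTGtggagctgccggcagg
Utp20 chr10:88826765-88826824 (minus strand): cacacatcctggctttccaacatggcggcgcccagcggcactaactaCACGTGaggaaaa
Pes1 chr11:3963950-3964009 (plus strand): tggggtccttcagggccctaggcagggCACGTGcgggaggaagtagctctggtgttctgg
Tsr1 chr11:74898070-74898129 (plus strand): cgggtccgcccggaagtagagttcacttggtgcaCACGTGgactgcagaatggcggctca
Wdr43 chr17:71616205-71616264 (plus strand): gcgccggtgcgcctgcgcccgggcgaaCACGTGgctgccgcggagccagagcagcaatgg
The motif began 121 bases before the transcript start in Imp4 and 60 before it in Nop2, and at positions 3, 18, 25, 29 and 38 counted from the start in Pes1, Wdr43, Tsr1, Ltv1 and Utp20. Pes1, which holds it, was called in neither genotype, and Gnl3, with the largest fall, does not hold it in this window.

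The libraries held 15139281 to 25342991 counts, and a single ribosome biogenesis factor had 83 to 24792 counts in a library. Levels are given as CPM, counts scaled to a common library size. Of the deleted microRNAs' own genes, Mir27a had 0 counts in all 6 Mirc11-/- libraries and 5 and 8 counts in all in the 3 stimulated and the 3 unstimulated wild-type libraries. Mir24-2 had 1 count, in a stimulated wild-type library, and Mir23a had 0 counts in every library of both genotypes, so these 2 genes do not check the labels. The 9 NK-cell markers were detected in every group, with a summed level of 3584 to 5743 CPM in stimulated and 10769.9 to 11705 CPM in unstimulated Mirc11-/- libraries, and of 6704 to 8016 CPM in stimulated and 9816 to 11983 CPM in unstimulated wild-type libraries. After stimulation 6 of the 9 fell and 1 rose in Mirc11-/- cells, and 6 fell and 3 rose in wild-type cells. Over all tested genes, 22.1% fell and 23.5% rose in Mirc11-/- cells, and 15.7% fell and 16.1% rose in wild-type cells. Reads in 548 vomeronasal receptor genes, which NK cells are not known to use and which stand here for background reads, summed to 49.1 to 85.4 CPM in stimulated and 14.6 to 17.0 CPM in unstimulated Mirc11-/- libraries. The same sum was 24.8 to 41.5 CPM in stimulated and 13.6 to 17.4 CPM in unstimulated wild-type libraries. Stimulated Mirc11-/- replicate 1 had the highest sum and was the lowest of its 3 replicates for 29 of the 39 genes. Stimulated wild-type replicate 2 was the highest of its 3 replicates for 38 of the 39. Its vomeronasal sum was 26.1 CPM, against 41.5 and 24.8 CPM in replicates 1 and 3. The share of all tested genes with these orders is not given, and a link between the sum and the members was not tested. Markers of several other cell types were low beside the NK-cell markers and higher in stimulated libraries. Those of B cells (6 genes, 3 tested, of which 3 rose in Mirc11-/- and 2 in wild-type cells) summed to 102 to 113 CPM in stimulated and 64.2 to 73.2 CPM in unstimulated Mirc11-/- libraries. In wild-type libraries the sum was 105 to 128 CPM in stimulated and 57.1 to 71.9 CPM in unstimulated ones. Macrophage and monocyte markers (6 genes, 3 tested) summed to 10.8 to 15.1 CPM in stimulated and 5.23 to 9.38 CPM in unstimulated Mirc11-/- libraries, and to 16.0 to 19.2 CPM in stimulated and 8.90 to 11.3 CPM in unstimulated wild-type libraries. Dendritic-cell markers (6 genes, 3 tested) summed to 22.3 to 33.0 CPM in stimulated and 10.5 to 14.1 CPM in unstimulated Mirc11-/- libraries, and to 24.8 to 28.4 CPM in stimulated and 10.1 to 14.8 CPM in unstimulated wild-type libraries. Of each of these lists 2 genes rose in Mirc11-/- and 1 in wild-type cells. Neutrophil and mast-cell markers (6 genes, 4 tested) summed to 85.3 to 116 CPM in stimulated and 33.5 to 51.5 CPM in unstimulated Mirc11-/- libraries, and to 110.6 to 139 CPM in stimulated and 66.4 to 80.7 CPM in unstimulated wild-type libraries, with S100a8 and S100a9 at 0 in the unstimulated libraries. Of the 4 tested, 1 rose and 1 fell in Mirc11-/- cells, and 1 rose and 0 fell in wild-type cells. T-cell markers overlapped between stimulated and unstimulated libraries in both genotypes. The part of these cells and of the background reads in the results was not tested.

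With the vomeronasal sum as a covariate in the fit, 3 of the 39 genes were called lower and 1 higher in stimulated Mirc11-/- cells, where 1.51% of all tested genes were called lower. The 3 were Gnl3, Ncl and Rrp1b, and the gene called higher was Polr1c (1.27 log2, adjusted p = 0.0215). In stimulated wild-type cells 8 were then called lower (Gnl3, Ncl, Rrp1b, Nolc1, Polr1a, Polr1b, Heatr1 and Utp20) and Polr1c and Pes1 higher (0.97 and 0.63 log2, adjusted p = 0.00112 and 0.0139), where 10.7% of all tested genes were called lower. The share of all tested genes called higher with this covariate is not given for either genotype, so these rises have no background beside them. The median of the 39 genes changed to -0.40 log2 in Mirc11-/- and -0.31 in wild-type cells. Because the vomeronasal sum did not overlap between stimulated and unstimulated libraries of either genotype, background reads and stimulation cannot be told apart by this fit.

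Summed over the 38 factors other than Npm1, the level was 1449.7 to 1620.1 CPM in stimulated and 2792 to 2971 CPM in unstimulated Mirc11-/- libraries. In wild-type cells it was 1709 to 2237 CPM in stimulated and 2843 to 2976 CPM in unstimulated libraries. The stimulated and unstimulated libraries therefore did not overlap in either genotype. Per kilobase of coding sequence, Npm1 had the highest level in unstimulated wild-type cells, 1117 ± 88.3 CPM per kilobase (SD, n = 3), followed by Ncl with 159 ± 32.0 and Nhp2 with 125 ± 9.53. The lowest were Gar1 with 13.1 ± 0.718 and Rrp12 with 9.05 ± 0.368 CPM per kilobase, so that the factors spanned a wide range on this scale. The counts are of whole genes, and exons are longer than coding sequence by unequal amounts. Gar1 has 693 coding and 1714 exonic bases, and Rrp12 has 3885 and 4340. The order of the genes therefore depends on the length used.

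Of the 3 RNA polymerase I genes, the catalytic-core subunits Polr1a and Polr1b fell in both genotypes and Polr1c passed the test in neither. Polr1b encodes the second-largest subunit (ENSMUSG00000027395, chromosome 2, 129100995 to 129126594, plus strand, GENCODE vM21 on GRCm38). Polr1b had 24.0, 24.99 and 23.0 CPM in stimulated and 52.2, 58.1 and 54.5 CPM in unstimulated Mirc11-/- libraries. In wild-type cells, Polr1b had 25.7, 36.7 and 28.4 CPM in stimulated and 56.9, 55.6 and 57.1 CPM in unstimulated libraries. It fell by 1.19 log2 ± 0.111 (SE; adjusted p = 2.87e-06) in Mirc11-/- cells and by 0.90 log2 ± 0.109 (SE; adjusted p = 4.10e-05) in wild-type cells, with no overlap between stimulated and unstimulated libraries. Polr1a encodes the largest subunit. Polr1a had 58.8, 54.1 and 56.1 CPM in stimulated and 105, 94.6 and 109 CPM in unstimulated Mirc11-/- libraries. In wild-type cells, Polr1a had 54.0, 73.0 and 69.4 CPM in stimulated and 105, 102 and 104 CPM in unstimulated libraries. The falls were 0.87 log2 in Mirc11-/- cells (adjusted p = 2.26e-05) and 0.66 log2 in wild-type cells (adjusted p = 0.000291). Polr1c encodes a subunit that RNA polymerase III also uses, and it was the 1 gene with a positive estimate in both genotypes. Polr1c had 27.7, 40.8 and 40.6 CPM in stimulated and 35.6, 31.9 and 32.7 CPM in unstimulated Mirc11-/- libraries. In wild-type cells, Polr1c had 40.4, 48.8 and 45.2 CPM in stimulated and 36.3, 38.7 and 28.5 CPM in unstimulated libraries. All 3 stimulated wild-type libraries were above the unstimulated ones, and the Mirc11-/- libraries overlapped. Its change was 0.12 log2 ± 0.146 (SE; adjusted p = 0.517) in Mirc11-/- cells and 0.38 log2 ± 0.144 (SE; adjusted p = 0.0614) in wild-type cells, with 95% confidence intervals of -0.19 to 0.44 and 0.07 to 0.69.

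Among the 4 nucleolar scaffold proteins and helicases, Nolc1, Ncl and Ddx21 fell in both genotypes and Npm1 in neither. Nolc1 encodes the snoRNP chaperone NOPP140 (ENSMUSG00000015176, chromosome 19, 46075863 to 46085530, plus strand). Nolc1 had 30.8, 35.6 and 34.7 CPM in stimulated and 78.0, 81.8 and 91.8 CPM in unstimulated Mirc11-/- libraries. In wild-type cells, Nolc1 had 44.5, 62.4 and 46.5 CPM in stimulated and 88.4, 82.6 and 91.5 CPM in unstimulated libraries. This was a fall of 1.32 log2 ± 0.121 (SE; adjusted p = 2.59e-06) in Mirc11-/- cells and of 0.78 log2 ± 0.118 (SE; adjusted p = 0.000269) in wild-type cells. Ncl encodes nucleolin, which binds the nascent precursor RNA. Ncl had 184, 166 and 159 CPM in stimulated and 318, 326 and 299 CPM in unstimulated Mirc11-/- libraries. In wild-type cells, Ncl had 175, 192 and 172 CPM in stimulated and 339, 267 and 402 CPM in unstimulated libraries. It fell by 0.89 log2 in Mirc11-/- and by 0.90 log2 in wild-type cells (adjusted p = 9.06e-05 and 0.000128). Ddx21, an RNA helicase of the nucleolus, fell by 0.87 and 0.56 log2 in Mirc11-/- and wild-type cells. Npm1 encodes nucleophosmin, the abundant protein of the granular outer nucleolus. Npm1 had 637, 1011 and 1016 CPM in stimulated and 912, 1042 and 1045 CPM in unstimulated Mirc11-/- libraries. In wild-type cells, Npm1 had 1024, 1071 and 1002 CPM in stimulated and 973, 1058 and 904 CPM in unstimulated libraries. Stimulated Mirc11-/- replicate 1 lay below all other libraries, and stimulated and unstimulated libraries overlapped in each genotype. The estimates were -0.17 log2 ± 0.153 (SE; adjusted p = 0.383) in Mirc11-/- and 0.08 log2 ± 0.153 (SE; adjusted p = 0.734) in wild-type cells, and without that replicate the Mirc11-/- estimate was 0.02. Of the 31-base stretches of Npm1, 29.2% also occur in other genes, so its counts are less certain than those of most members.

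**Figure D2:**
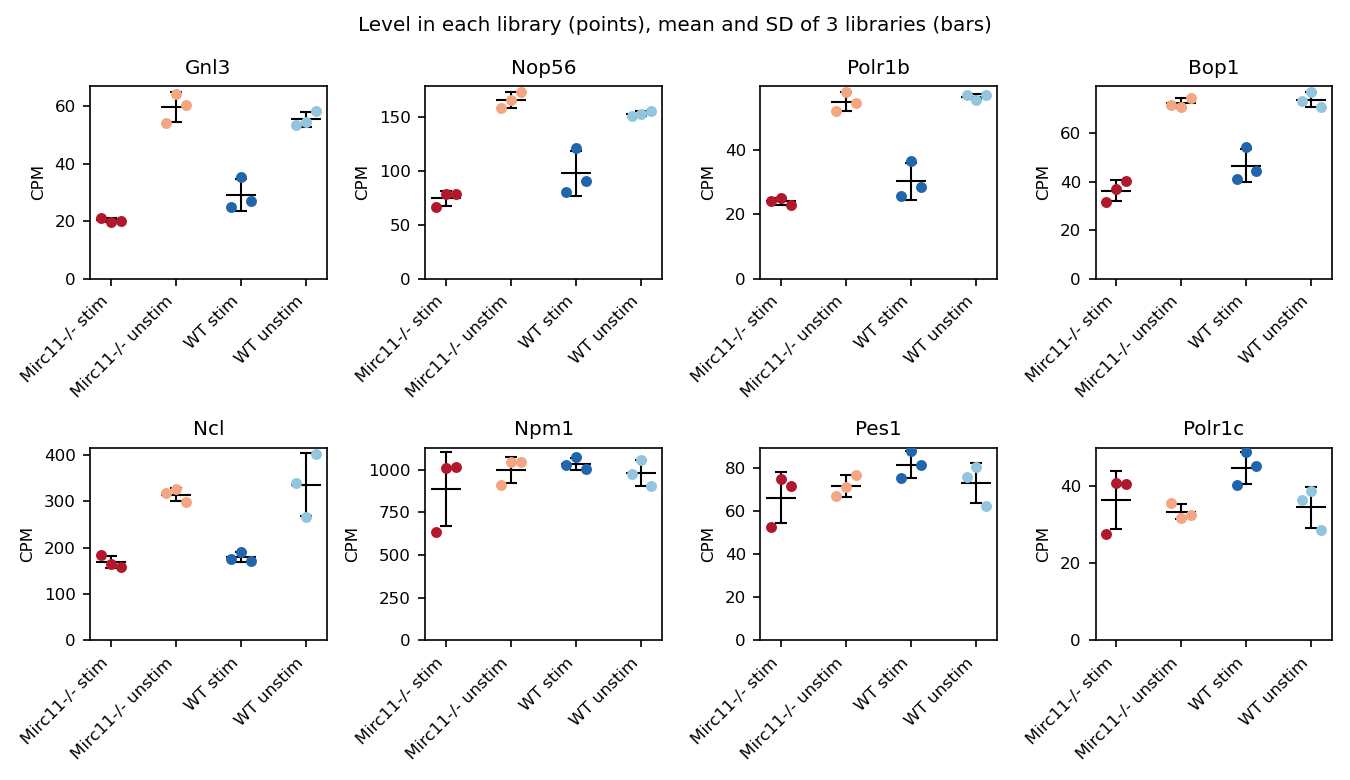
Level of 8 ribosome biogenesis factors in every library, in CPM on axes of their own, with the 4 groups side by side, points for libraries and bars for the mean and SD (n = 3). The 3 stimulated libraries of Gnl3 lie below the 3 unstimulated ones in each genotype, while those of Pes1 and Npm1 overlap with them.

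All 4 box C/D snoRNP genes and all 3 box H/ACA genes fell in both genotypes (22.1% of all tested genes in Mirc11-/- and 15.7% in wild-type cells). Fbl encodes fibrillarin, the methyltransferase of the box C/D particle. Fbl had 18.1, 32.7 and 30.4 CPM in stimulated and 50.2, 59.8 and 61.3 CPM in unstimulated Mirc11-/- libraries. In wild-type cells, Fbl had 25.1, 35.6 and 34.8 CPM in stimulated and 48.9, 50.4 and 53.2 CPM in unstimulated libraries. Stimulated Mirc11-/- replicate 1 was again the lowest library. Nop56 and Nop58 encode the paired core proteins of the same particle. Nop56 had 66.2, 78.6 and 78.6 CPM in stimulated and 158, 165 and 173 CPM in unstimulated Mirc11-/- libraries. In wild-type cells, Nop56 had 80.5, 121 and 90.8 CPM in stimulated and 150.4, 153 and 155 CPM in unstimulated libraries. For Nop58 the libraries were separated in the same way. Nop58 had 49.3, 58.1 and 60.8 CPM in stimulated and 117, 142 and 138 CPM in unstimulated Mirc11-/- libraries. In wild-type cells, Nop58 had 61.1, 87.2 and 68.2 CPM in stimulated and 119.6, 124 and 128 CPM in unstimulated libraries. Stimulated libraries of all 3 genes lay below the unstimulated ones in each genotype. In Mirc11-/- cells Fbl, Nop56, Nop58 and Rrp9, whose protein binds the U3 snoRNA, fell by 1.08, 1.15, 1.24 and 1.21 log2. In wild-type cells the same genes fell by 0.68, 0.65, 0.78 and 0.64 log2. The call of Fbl in wild-type cells ended without unstimulated replicate 3 and without stimulated replicate 1 (adjusted p up to 0.0660). Dkc1 encodes dyskerin, the pseudouridine synthase of the box H/ACA particle (ENSMUSG00000031403, chromosome X, 75095854 to 75109777, plus strand). Dkc1 had 42.1, 48.4 and 51.1 CPM in stimulated and 91.3, 101 and 106 CPM in unstimulated Mirc11-/- libraries. In wild-type cells, Dkc1 had 53.0, 74.7 and 50.6 CPM in stimulated and 96.6, 95.6 and 90.1 CPM in unstimulated libraries. It fell by 1.07 log2 ± 0.131 (SE; adjusted p = 2.80e-05) in Mirc11-/- and by 0.66 log2 ± 0.129 (SE; adjusted p = 0.00159) in wild-type cells. Its partners Gar1 and Nhp2 fell by 0.79 and 0.78 log2 in Mirc11-/- cells and by 0.70 and 0.54 log2 in wild-type cells, where the call of Nhp2 ended without unstimulated replicate 2 and without stimulated replicate 1 (adjusted p up to 0.0698).

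Of the 12 small-subunit factors, 11 fell in Mirc11-/- cells and 9 in wild-type cells (22.1% and 15.7% of all tested genes). Their medians were -0.80 and -0.52 log2. Wdr43 encodes a processome protein of the group that is also needed for transcription of the precursor RNA (ENSMUSG00000041057, chromosome 17, 71615895 to 71659031, plus strand), and its E-box is shown above. Wdr43 had 48.2, 57.3 and 62.3 CPM in stimulated and 109, 128 and 124 CPM in unstimulated Mirc11-/- libraries. In wild-type cells, Wdr43 had 70.9, 91.5 and 71.8 CPM in stimulated and 119.7, 118 and 113 CPM in unstimulated libraries. It fell by 1.10 log2 ± 0.117 (SE; adjusted p = 8.19e-06) in Mirc11-/- and by 0.58 log2 ± 0.115 (SE; adjusted p = 0.00173) in wild-type cells. Ltv1 and Rrp12, which act late in 40S maturation and export, fell by 1.11 and 1.09 log2 in Mirc11-/- cells and by 0.67 and 0.55 log2 in wild-type cells. The processome genes Heatr1, Utp20, Nop14, Imp4 and Wdr3 and the 40S assembly factor Tsr1 fell by 0.68 to 0.98 log2 in Mirc11-/- and by 0.41 to 0.69 log2 in wild-type cells. Part of Tsr1, 32.3% of its exonic bases, overlaps Srr on the opposite strand, and the strand setting of the counting is not known. Nob1 encodes the endonuclease that makes the final cut of the 18S ribosomal RNA. Nob1 had 19.1, 22.0 and 21.3 CPM in stimulated and 30.2, 26.7 and 31.4 CPM in unstimulated Mirc11-/- libraries. In wild-type cells, Nob1 had 24.1, 30.99 and 23.9 CPM in stimulated and 28.1, 29.6 and 27.7 CPM in unstimulated libraries. The stimulated libraries lay below the unstimulated ones in Mirc11-/- cells and overlapped with them in wild-type cells. Its changes were -0.50 log2 ± 0.111 (SE; adjusted p = 0.00250) in Mirc11-/- and -0.11 log2 ± 0.109 (SE; adjusted p = 0.465) in wild-type cells. Noc4l, whose yeast counterpart pairs with that of Nop14, had -0.33 log2 in Mirc11-/- (adjusted p = 0.0124) and 0.00 log2 in wild-type cells (adjusted p = 0.981). Ddx10 encodes an RNA helicase of the processome. Ddx10 had 53.3, 59.4 and 62.7 CPM in stimulated and 60.9, 71.1 and 64.8 CPM in unstimulated Mirc11-/- libraries. In wild-type cells, Ddx10 had 68.8, 73.5 and 74.3 CPM in stimulated and 62.6, 66.7 and 61.8 CPM in unstimulated libraries. All 3 stimulated wild-type libraries of Ddx10 lay above the unstimulated ones, with an estimate of 0.18 log2 ± 0.0842 (SE; adjusted p = 0.120), and in Mirc11-/- cells the estimate was -0.17 log2 ± 0.0848 (SE; adjusted p = 0.126).

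Of the 13 large-subunit factors, 12 fell in Mirc11-/- cells and 11 in wild-type cells (22.1% and 15.7% of all tested genes). Their medians were -1.01 and -0.60 log2. Gnl3 encodes nucleostemin, a nucleolar GTP-binding protein of growing cells (ENSMUSG00000042354, chromosome 14, 31012433 to 31019152, minus strand), and had the largest fall of the 39 genes in both genotypes. Gnl3 had 21.2, 19.8 and 20.2 CPM in stimulated and 54.0, 64.3 and 60.1 CPM in unstimulated Mirc11-/- libraries. In wild-type cells, Gnl3 had 24.8, 35.3 and 27.1 CPM in stimulated and 53.2, 54.6 and 58.1 CPM in unstimulated libraries. It fell by 1.54 log2 ± 0.118 (SE; adjusted p = 5.29e-07) in Mirc11-/- cells and by 0.93 log2 ± 0.115 (SE; adjusted p = 5.03e-05) in wild-type cells, and stayed called in both with the vomeronasal covariate. Rrs1, whose yeast counterpart helps to place the 5S particle in the pre-60S subunit, fell by 1.40 and 0.81 log2 in Mirc11-/- and wild-type cells. Ppan, a pre-60S assembly factor (ENSMUSG00000004100, chromosome 9, 20888175 to 20892178, plus strand), fell by 1.36 and 0.60 log2. The pre-60S factors Rrp1b, Mrto4 and Noc2l and the RNA methyltransferase Nop2 fell by 1.01 to 1.21 log2 in Mirc11-/- and by 0.56 to 0.81 log2 in wild-type cells. Nop16 averaged 15.6 CPM in stimulated and 31.2 CPM in unstimulated Mirc11-/- cells and fell by 0.57 log2 in wild-type cells. Noc3l, whose yeast counterpart pairs with that of Noc2l, had the smallest fall called in wild-type cells. Noc3l had 22.5, 27.2 and 28.0 CPM in stimulated and 42.3, 44.97 and 50.1 CPM in unstimulated Mirc11-/- libraries. In wild-type cells, Noc3l had 28.7, 39.6 and 34.1 CPM in stimulated and 46.8, 46.0 and 43.1 CPM in unstimulated libraries. Its fall was 0.41 log2 ± 0.116 (SE; adjusted p = 0.0159) in wild-type cells, where the call ended without unstimulated replicate 1 and without stimulated replicate 1 (adjusted p up to 0.0817), and 0.82 log2 in Mirc11-/- cells. Nip7, a 60S factor, fell by 0.59 log2 in Mirc11-/- and 0.43 log2 in wild-type cells, where its call ended without stimulated replicate 3 (adjusted p = 0.0506).

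**Figure D3:**
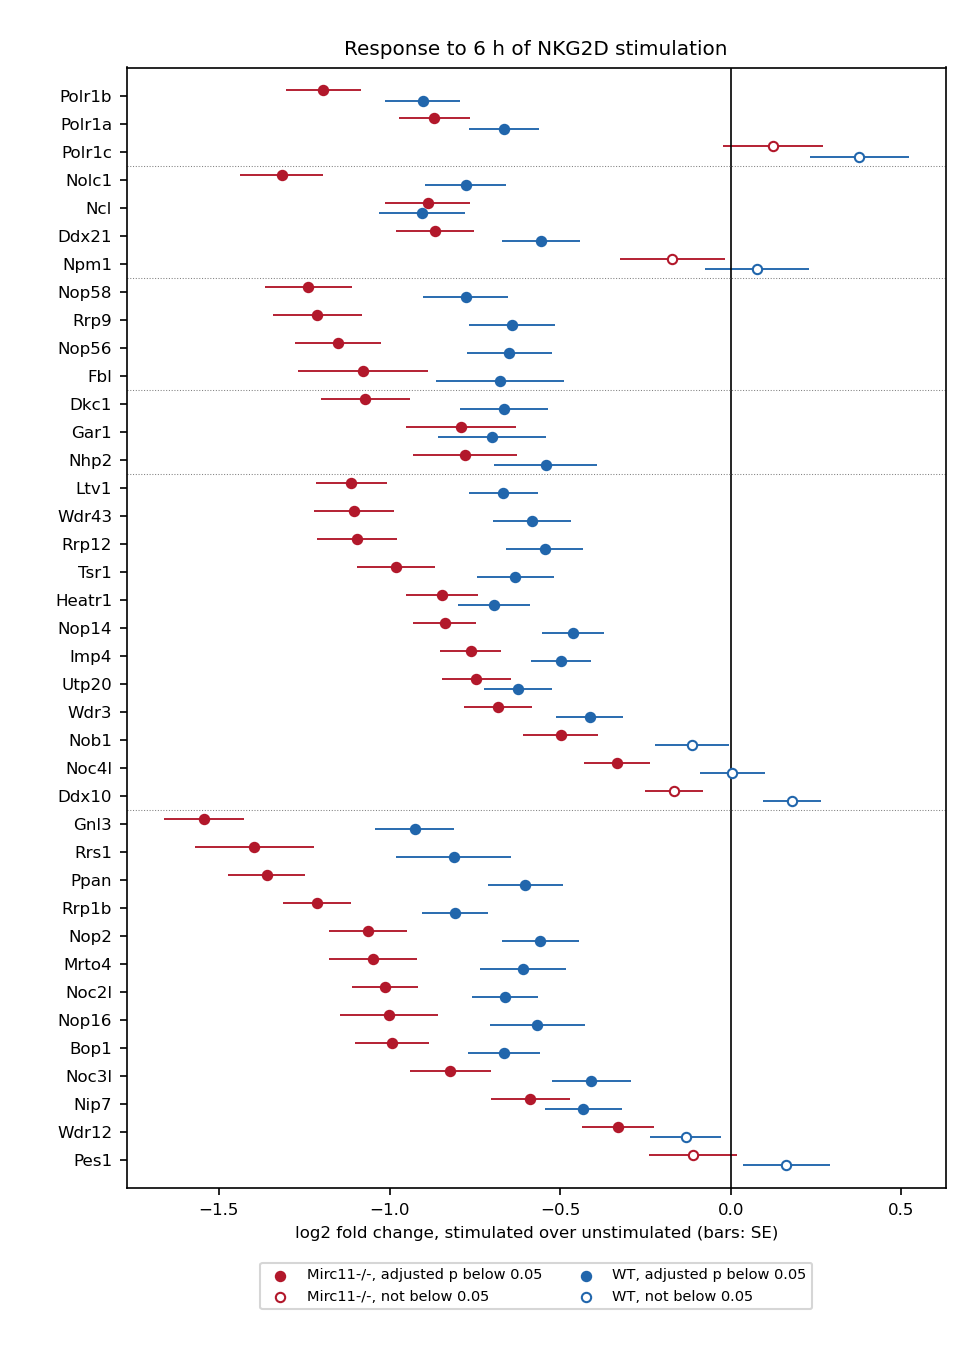
Log2 fold change of stimulated over unstimulated cells for each of the 39 genes in Mirc11-/- and in wild-type cells, with bars for the SE of the edgeR fit and filled points for adjusted p below 0.05. Of the 39 points, 35 are filled in Mirc11-/- and 32 in wild-type cells, all of them below 0, and Gnl3 lies lowest in each.

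Bop1, Pes1 and Wdr12 encode the 3 subunits of the PeBoW complex, which is needed to process the RNAs of the large subunit, and their transcripts changed unequally. Bop1 had 31.8, 37.2 and 40.2 CPM in stimulated and 71.5, 71.0 and 74.6 CPM in unstimulated Mirc11-/- libraries. In wild-type cells, Bop1 had 41.2, 54.1 and 44.4 CPM in stimulated and 73.4, 77.2 and 70.9 CPM in unstimulated libraries. Bop1 fell by 0.99 log2 ± 0.108 (SE; adjusted p = 1.03e-05) in Mirc11-/- and by 0.66 log2 ± 0.106 (SE; adjusted p = 0.000380) in wild-type cells. Wdr12 had 23.6, 25.6 and 25.2 CPM in stimulated and 28.6, 32.4 and 32.6 CPM in unstimulated Mirc11-/- libraries. In wild-type cells, Wdr12 had 25.3, 33.7 and 27.6 CPM in stimulated and 29.8, 31.9 and 33.2 CPM in unstimulated libraries. Wdr12 fell by 0.33 log2 ± 0.106 (SE; adjusted p = 0.0209) in Mirc11-/- cells, the smallest change called there, and had -0.13 log2 ± 0.104 (SE; adjusted p = 0.368) in wild-type cells. The call in Mirc11-/- cells ended without stimulated replicate 1 and without unstimulated replicate 2 or 3 (adjusted p up to 0.0657). Pes1 had 52.8, 74.8 and 71.6 CPM in stimulated and 66.9, 71.2 and 77.0 CPM in unstimulated Mirc11-/- libraries. In wild-type cells, Pes1 had 75.6, 87.9 and 81.7 CPM in stimulated and 76.1, 80.4 and 62.5 CPM in unstimulated libraries. Pes1 had -0.11 log2 ± 0.128 (SE; adjusted p = 0.507) in Mirc11-/- and 0.16 log2 ± 0.127 (SE; adjusted p = 0.358) in wild-type cells, with 95% confidence intervals of -0.39 to 0.16 and -0.11 to 0.44, and 32.4% of its 31-base stretches occur in other genes.

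The ratio of counts of 2 genes within a library does not depend on how libraries are scaled. The Bop1 to Pes1 ratio was 0.602, 0.497 and 0.561 in stimulated and 1.07, 0.996 and 0.970 in unstimulated Mirc11-/- replicates 1 to 3. In wild-type cells it was 0.544, 0.616 and 0.543 in stimulated and 0.964, 0.960 and 1.13 in unstimulated replicates. The Polr1b to Polr1c ratio was 0.866, 0.612 and 0.567 in stimulated and 1.46, 1.82 and 1.67 in unstimulated Mirc11-/- replicates, and 0.636, 0.752 and 0.629 in stimulated and 1.57, 1.44 and 2.00 in unstimulated wild-type replicates. For both ratios the stimulated libraries lay below the unstimulated ones without overlap in each genotype. The Ncl to Npm1 ratio overlapped in Mirc11-/- cells, with 0.289, 0.164 and 0.157 in stimulated and 0.349, 0.313 and 0.286 in unstimulated replicates, and spanned 0.171 to 0.179 in stimulated and 0.252 to 0.445 in unstimulated wild-type libraries. The Noc2l to Noc4l ratio spanned 2.74 to 3.01 in stimulated and 4.61 to 4.71 in unstimulated Mirc11-/- libraries, and 2.55 to 2.89 in stimulated and 4.33 to 4.46 in unstimulated wild-type libraries. The smallest two-sided p of an exact permutation test on 3 against 3 libraries is 0.10, so none was computed. The Bop1 to Wdr12 ratio spanned 1.35 to 1.59 in stimulated and 2.19 to 2.50 in unstimulated Mirc11-/- libraries, and 1.60 to 1.63 in stimulated and 2.14 to 2.47 in unstimulated wild-type libraries. These ratios show unequal change and not which of the 2 genes changed. Each pair sets a gene called lower over one with a smaller change, from the same counts as the fits above. Their separation is therefore no separate evidence.

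Most other genes of the pathway were also called lower in Mirc11-/- cells, with smaller medians than those of the 39 genes. Of 138 further symbols for RNA polymerase I, processome, pre-60S, snoRNP and RNA exosome genes, 128 were in the table and 127 were tested. In Mirc11-/- cells 95 of these fell and 2 rose after stimulation (22.1% and 23.5% of all tested genes), with a median of -0.53 log2. In wild-type cells 64 fell and 3 rose (15.7% and 16.1% of all tested genes), with a median of -0.29 log2. Other 60S assembly factors counted 43 of 48 lower in Mirc11-/- and 26 of 48 in wild-type cells. Other genes of RNA polymerase I and ribosomal DNA transcription were near these shares, with 4 of 13 lower and 1 higher in Mirc11-/- cells (median -0.15 log2) and 3 lower and 2 higher in wild-type cells (median 0.06 log2). Nol10, a processome protein, averaged 20.2 CPM in stimulated and 40.4 CPM in unstimulated Mirc11-/- cells, and 24.6 CPM in stimulated and 41.3 CPM in unstimulated wild-type cells. Tcof1, a cofactor of RNA polymerase I, fell by 0.98 log2 in Mirc11-/- and 0.72 log2 in wild-type cells. The exosome nuclease Dis3 fell by 1.15 log2 in Mirc11-/- and 0.84 log2 in wild-type cells. Brix1 was 1.16 log2 lower in stimulated Mirc11-/- cells and Nol6 0.91 log2 lower in stimulated wild-type cells.

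Of the MYC factors, Myc had 22.9, 20.6 and 21.6 CPM in stimulated and 70.8, 65.5 and 73.1 CPM in unstimulated Mirc11-/- libraries. In wild-type cells, Myc had 29.3, 44.9 and 29.1 CPM in stimulated and 70.3, 67.2 and 75.3 CPM in unstimulated libraries. Stimulated libraries lay below unstimulated ones in each genotype. Mycn had 2.78, 2.21 and 1.40 CPM in stimulated and 26.1, 24.3 and 24.1 CPM in unstimulated Mirc11-/- libraries, and 2.42, 3.52 and 2.24 CPM in stimulated and 25.4, 25.5 and 21.0 CPM in unstimulated wild-type libraries. Max, the partner of MYC, had -0.12 log2 in Mirc11-/- and -0.07 log2 in wild-type cells (adjusted p = 0.286 and 0.604). Whether Myc or Mycn had a part in the lower levels was not tested.

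In unstimulated cells no difference between genotypes was detected in these genes. Mirc11-/- minus wild-type log2 fold changes ran from -0.10 to 0.17 with a median of 0.00, and 0 of 39 were called by edgeR (0.796% of all tested genes were called lower and 0.309% higher, and 0 of the 39 had an unadjusted p below 0.05). DESeq2 called 0 as well. In 0 of the 39 did the Mirc11-/- libraries all lie below the wild-type ones (8.91% of all tested genes), and in 2, Nop56 and Ppan, they all lay above them (8.87% of all tested genes). SEs of 0.0844 to 0.185 log2 limit what could be seen.

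In stimulated cells all 39 estimates were lower in Mirc11-/- than in wild-type cells (Gar1 was at 0.04 log2 without a composition factor and at 0.06 without stimulated Mirc11-/- replicate 1 or stimulated wild-type replicate 2, Ncl at 0.03 with a stricter filter, and 10 of the 39 above 0 with the vomeronasal covariate), with a median of -0.33 log2 beside 0.02 over all tested genes. Of the 39, 15 were called lower and 0 higher, where 5.13% of all tested genes were called lower and 3.89% higher. In 25 of the 39 the 3 stimulated Mirc11-/- libraries lay below the 3 stimulated wild-type ones, an order held by 16.8% of all tested genes. The 15 were Ppan, Rrp12, Nolc1, Rrp9, Nop16, Nop2, Gnl3, Wdr43, Mrto4, Nop14, Ltv1, Rrp1b, Noc4l, Imp4 and Ddx10. They held 7 of the 12 small-subunit and 6 of the 13 large-subunit factors, with role medians of -0.33 and -0.40 log2. None of the 3 RNA polymerase I or 3 box H/ACA genes was called, with medians of -0.30 and -0.24 log2. Of these, Polr1b and Dkc1 had -0.33 log2 each (adjusted p = 0.0709 and 0.110), a larger difference than that of the called Ddx10. Ppan had the largest difference. Ppan had 23.0, 23.9 and 21.0 CPM in stimulated and 56.2, 57.1 and 60.8 CPM in unstimulated Mirc11-/- libraries. In wild-type cells, Ppan had 29.3, 42.5 and 37.1 CPM in stimulated and 55.0, 55.1 and 55.2 CPM in unstimulated libraries. The 3 stimulated Mirc11-/- libraries lay below the 3 stimulated wild-type ones, and Ppan was lower in the Mirc11-/- cells by 0.68 log2 ± 0.112 (SE; adjusted p = 0.00379). Rrp12 and Nolc1 were lower by 0.62 and 0.60 log2. Ddx10, with the values given above, had the smallest difference called, -0.30 log2 ± 0.0846 (SE; adjusted p = 0.0417), and Gnl3 was lower by 0.51 log2 ± 0.118 (SE; adjusted p = 0.0206). In the 12 fits that each left out 1 library, Ppan, Rrp12 and Nolc1 stayed called in 12. Gnl3, Nop14 and Nop2 stayed called in 11, Wdr43 in 10, and Ltv1, Rrp9 and Rrp1b in 9. Ddx10, Mrto4 and Nop16 stayed called in 5, and Imp4 and Noc4l in 2. Ncl and Gar1 had -0.08 and -0.03 log2 (adjusted p = 0.681 and 0.935).

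The number of these calls rested on single libraries and on the model. It was 3 without stimulated wild-type replicate 2 and 7 without replicate 3 of that group or without stimulated Mirc11-/- replicate 1, and 26 without stimulated wild-type replicate 1. It was 0 when the 6 stimulated libraries were fitted alone, 9 without a composition factor, and 25 with DESeq2 or with no filter on low counts. The share of all tested genes called in each of these fits is not given here. A change in the members is therefore not told apart from a change over all genes. With the vomeronasal sum as a covariate the number of members called was 0, with a median of -0.06 log2. The share of all tested genes called with this covariate is not given here either. The vomeronasal sum was 49.1 to 85.4 CPM in stimulated Mirc11-/- and 24.8 to 41.5 CPM in stimulated wild-type libraries. Because these ranges did not overlap, background reads and genotype cannot be told apart by this fit. Summed NK-cell markers were also lower in stimulated Mirc11-/- libraries, at 3584 to 5743 CPM against 6704 to 8016 CPM in stimulated wild-type libraries, with 3 of 9 called lower. T-cell marker sums were 54.0 to 71.1 CPM in stimulated Mirc11-/- and 33.8 to 50.4 CPM in stimulated wild-type libraries, with 1 of 6 called higher, and macrophage and monocyte sums were 10.8 to 15.1 CPM against 16.0 to 19.2 CPM, with 0 of 3 called. Of B-cell markers 1 of 3 was called higher, and of neutrophil and mast-cell markers 2 of 4 lower. The part of these differences in the result was not tested. Of the 127 other pathway genes, 20 were lower and 0 higher, where 5.13% of all tested genes were lower and 3.89% higher, and their median was -0.26 log2. Surf6, Mphosph6, Mphosph10 and Snu13, the box C/D core protein that binds the kink-turn of the snoRNA, were lower by 0.55, 0.56, 0.50 and 0.47 log2. Myc was lower by 0.66 log2 (adjusted p = 0.0142).

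**Figure D4:**
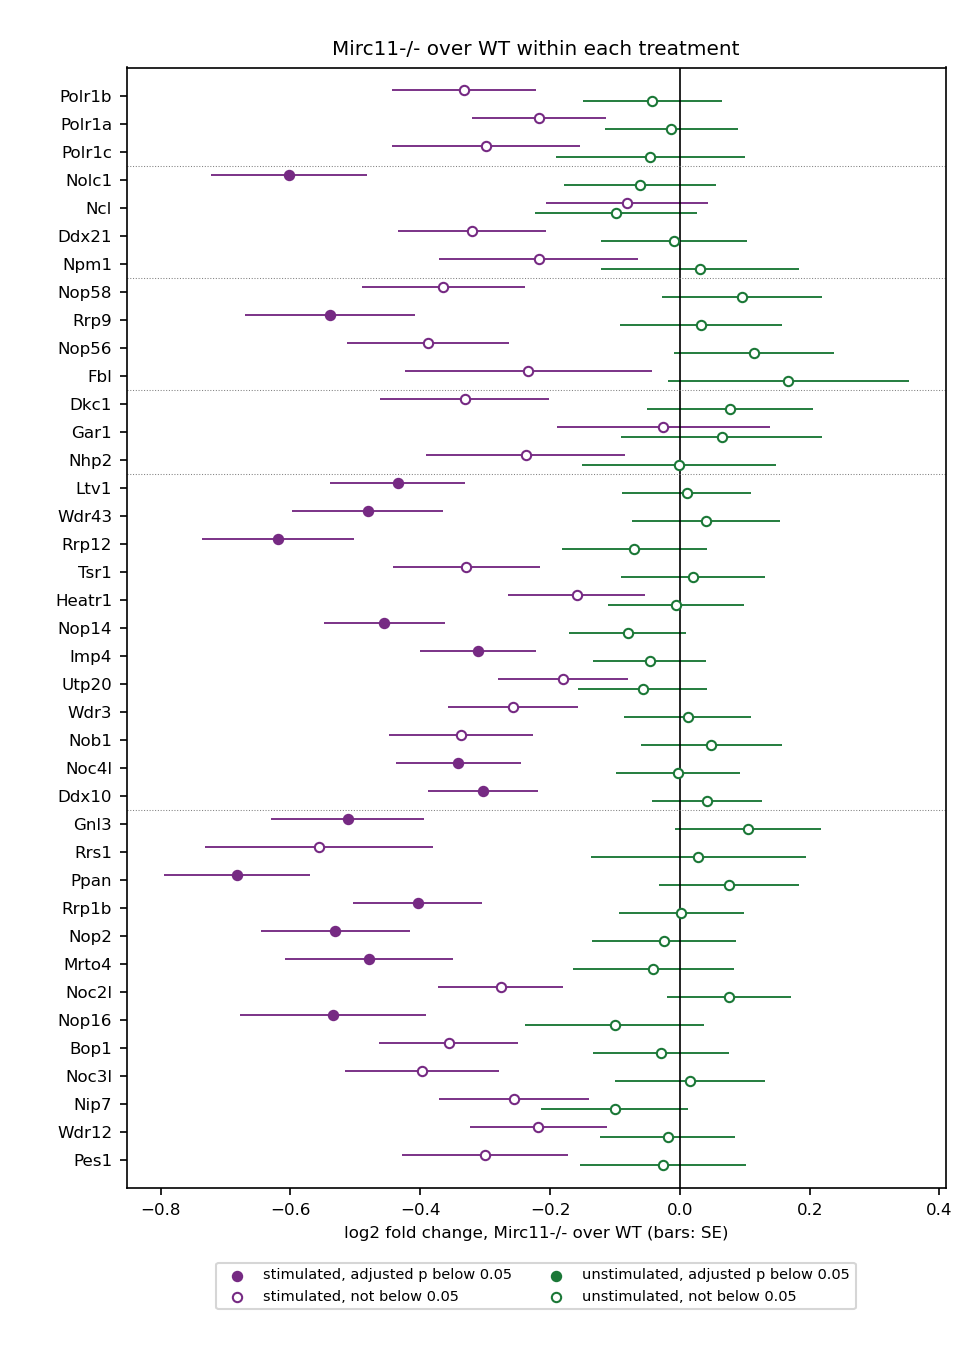
Log2 fold change of Mirc11-/- over wild-type cells for each of the 39 genes, stimulated and unstimulated, with bars for the SE of the edgeR fit and filled points for adjusted p below 0.05. All 39 stimulated points lie below 0 in this fit (10 lay above 0 with the vomeronasal covariate, Gar1 without a composition factor and Ncl with a stricter filter) and 15 of them are filled, while the unstimulated points lie between -0.10 and 0.17 and none is filled.

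**Figure D5:**
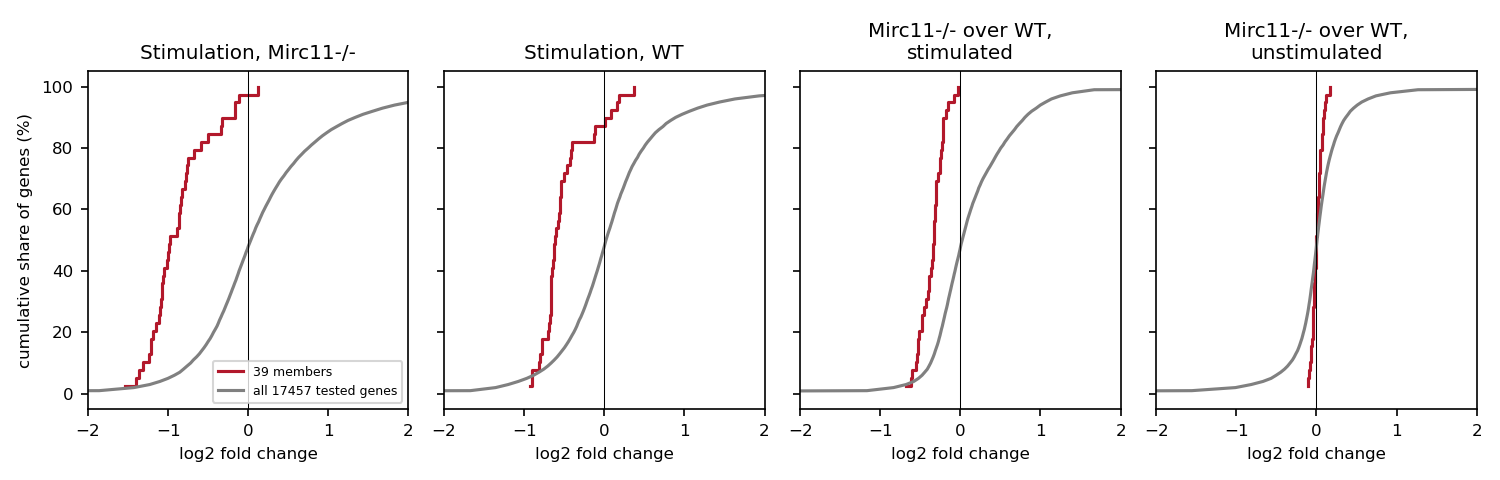
Cumulative share of genes (percent) by log2 fold change, for the 39 ribosome biogenesis factors and for all 17457 tested genes, in 4 panels for stimulation in Mirc11-/- cells, stimulation in wild-type cells, and Mirc11-/- over wild-type in stimulated and in unstimulated cells. The medians of the 39 genes are -0.98, -0.61, -0.33 and 0.00 log2 in the order of the panels, beside 0.03, 0.02, 0.02 and 0.01 over all tested genes.

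Whether the response to NKG2D differed between genotypes was tested as the interaction, the change in Mirc11-/- cells minus that in wild-type cells. None of the 39 genes passed in edgeR (0 called, where 0.0115% of all tested genes were called lower and 0 genes higher). At an unadjusted p below 0.05, 23 of the 39 were lower and 0 higher, beside 4.89% of all tested genes lower. The estimates were below 0 in 38 of 39 genes, with a median of -0.35 log2 beside -0.02 over all tested genes. This comparison shares its libraries with those above and is no separate evidence. Ppan had the lowest estimate, -0.76 log2 ± 0.156 (SE; adjusted p = 0.174), with a 95% confidence interval of -1.09 to -0.42. It was called by DESeq2 (adjusted p = 0.00614), with no filter (adjusted p = 0.0137) and without stimulated wild-type replicate 1 (adjusted p = 0.0197). Over all alternatives its adjusted p ran up to 1, with the vomeronasal covariate. Gnl3 had -0.62 log2 ± 0.163 (SE; adjusted p = 0.366). Ncl, with 0.02 log2 ± 0.176 (SE; adjusted p = 0.975), was the 1 gene with an estimate above 0.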

How the data were processed

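Polyadenylated RNA of 12 libraries of mouse NK cells was sequenced with a TruSeq RNA kit, per the labels' protocols. The submitters' processing notes name bcl2fastq, Trim Galore (0.4.1), Bowtie2 (2.2.8), RSEM (1.3.0) and the build GRCm38. Neither the gene annotation nor how strand was handled is stated in the sources used here. The deposited table holds expected counts from RSEM for 50674 genes, unscaled. All of its values were whole, so no rounding was needed.

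Replicates differed by more than counting error (chi-square per degree of freedom 5.22 to 49.0), so each library was counted once. edgeR 4.0.16 (R 4.3.3) was used with its filterByExpr filter, TMM scaling and a robust quasi-likelihood fit in which all 12 libraries entered with 1 mean per group. P values are two-sided and adjusted by Benjamini-Hochberg over 17457 genes, with a threshold of 0.05. CPM are counts over the TMM-scaled library size. The 39 genes, the other lists and the tests were chosen with earlier results of these data known. Values in every library are given for 15 genes that span the roles and for the largest and smallest called change per comparison. Genes were placed with GENCODE vM21. Promoter sequence came from RefSeq (GRCm38.p6), in which 34 of the 39 genes were found. DESeq2 1.42.0 and limma 3.58.1 (voom), other scalings and filters, a background covariate and leaving out each library were alternatives, and the fit was tested on simulated data. Replicate numbers were not taken as pairs (the check is given with the alternatives).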

Additional observations from a re-analysis of the deposited data

How the results depend on the processing

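With another scaling (DESeq2 size factors or no composition factor), DESeq2, limma voom, a non-robust fit or a fit of only the groups compared, 35 genes were called lower after stimulation in Mirc11-/- cells and 32 in wild-type cells, as in the main results, and a filter of at least 10 CPM in 3 libraries, which left out Gar1 and tested 38 genes, gave 33 and 31. With no filter the counts were 35 and 31. Genes called higher in wild-type cells numbered 2 with that stricter filter and 1 with only the groups compared, against 0 in the main results. The median in Mirc11-/- cells was -1.08 log2 with no filter and -0.85 log2 with the stricter filter. With no filter the median of all genes moved to 0.77 log2 in Mirc11-/- and 0.17 log2 in wild-type cells, against which the members' values are to be read. Leaving out single libraries gave 34 to 35 genes lower and medians of -1.01 to -0.90 log2 in Mirc11-/- cells, and 29 to 32 lower, 0 to 1 higher and medians of -0.75 to -0.51 log2 in wild-type cells. Between stimulated genotypes, 15 genes were called lower, against 9 without a composition factor, 25 with no filter, 25 with DESeq2 and 0 in a fit of the 6 libraries alone. Without single libraries 3 to 26 were called, with medians of -0.43 to -0.24 log2. For these counts the share of all tested genes called in each fit is not given. In unstimulated cells these fits called 0. The interaction called 1 gene, Ppan, with no filter and with DESeq2, and 0 to 1 without single libraries, with medians of -0.44 to -0.26 log2.

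With the vomeronasal covariate, 3 genes were called lower and 1 higher in Mirc11-/- cells (median -0.40 log2), and 8 lower and 2 higher in wild-type cells (-0.31). Between stimulated genotypes 0 were called (-0.063), and the interaction's median was -0.10. The vomeronasal sum did not overlap between the stimulated genotypes, so this fit cannot tell background reads from genotype. Under the covariate many signs changed. The stimulation estimate in Mirc11-/- cells turned positive with it for Npm1 (0.61), Fbl (0.26), Nhp2 (0.32), Noc4l (0.16), Ddx10 (0.14), Nob1 (0.0021), Pes1 (0.79) and Wdr12 (0.0072). In wild-type cells it did so for Nhp2 (0.015), Nob1 (0.14) and Wdr12 (0.035). Between stimulated genotypes it did so for Polr1c (0.31), Npm1 (0.19), Fbl (0.48), Nhp2 (0.34), Gar1 (0.26), Pes1 (0.17), Rrs1 (0.017), Noc2l (0.051), Noc3l (0.0204) and Nip7 (0.042). Other signs that changed were of estimates that passed no test. Pes1 in Mirc11-/- cells was at 0.0205 with the stricter filter. Without single libraries Npm1 ran from -0.29 to 0.023 and Pes1 from -0.22 to 0.033 there, each positive only without stimulated replicate 1. Noc4l in wild-type cells was at -0.0604 without a composition factor, -0.034 with no filter, and -0.074 to 0.036 without single libraries. Between stimulated genotypes Gar1 was at 0.039 without a composition factor and -0.13 to 0.061 without single libraries (positive without stimulated Mirc11-/- replicate 1 or stimulated wild-type replicate 2), and Ncl at 0.034 with the stricter filter. The cause was not tested.

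Libraries with the same replicate number within a genotype did not deviate together throughout (r of -0.07 to 0.23 across genes, over 0.1 in 3 of 6 pairs). For different numbers within a genotype r was -0.20 to 0.12, over 0.1 in 2 of 12 pairs. The numbers were not taken as pairs, but this check does not exclude pairing. With the number as a replicate block the calls were 35, 32 and 21 in the order of Mirc11-/- stimulation, wild-type stimulation and stimulated genotypes. A block within genotype, which cannot compare genotypes, gave 35 and 32. Counts were as low as 83 in a library, where counting error adds to the spread, and 3 libraries per group limit the precision of each value.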
